A study of Mus musculus with 8 samples.

Results

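Measured as tags in called peaks, the trimethyl mark on lysine 4 of histone H3 (H3K4me3) was lower at 300 peaks of D1 cells after curdlan. This was so both with and without FK506. These peaks were chosen by measured values. By the deposited fold enrichment over input only 66 of them (22%) were lower in both, against 5.76% of the 11179 peaks compared. With fold enrichment centred on the 11179 peaks, as the tags were, 226 were lower with curdlan and 238 with curdlan+FK506, against 5589 of the 11179 in each case. The start was 15799 H3K4me3 peaks of non-treated (NT) cells, of which 11250 held 200 or more ChIP tags, and 11179 of those overlapped a peak of both treated lists and are called shared peaks here. Each peak was given its tags per 1000000 ChIP tags in each library, with overlapping peaks of a treated list summed, and the log2 ratios of NT over curdlan and of NT over curdlan+FK506 were centred on their medians over the shared peaks. The 300 peaks in which the smaller of both ratios was highest are the members described here. Because the ratios chose the members, their sizes are a description and not a test.

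D1 is a long-term dendritic cell (DC) line from the spleen of C57BL/6 mice. The H3K4me3 libraries came from NT cells, from cells given 10 μg/ml curdlan for 2 h, and from cells given curdlan with FK506, for which the labels give the same 2 h and no FK506 dose. A further library used an anti-V5 antibody after 30 min of 10 μg/ml curdlan in D1 cells that stably expressed V5-tagged NFATc2 from a lentiviral vector, so its peaks show the tagged and not the endogenous protein. There was 1 ChIP and 1 input library per condition, and the spread between replicates is therefore unknown, and intervals given here cover counting error only. Among DC marker genes, 13 of 15 in the annotation had an H3K4me3 peak within 1 kb of a transcription start site (TSS) in all 3 lists. Such peaks were also found at 7, 7 and 6 of 12 macrophage and monocyte markers in NT, curdlan and curdlan+FK506 and at 1 of 7 T cell markers in each list, and at no B cell, natural killer cell, fibroblast or neutrophil marker.

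H3K4me3 is placed by SET1 and MLL methyltransferase complexes and lies on the nucleosomes that flank active TSSs, where CpG islands recruit these enzymes through CXXC-domain proteins. Weaker H3K4me3 is also found at some active enhancers. Curdlan is a β-glucan that engages dectin-1 on DCs and signals through Syk to NF-κB and, through calcium and calcineurin, to NFAT. FK506 blocks calcineurin and so keeps NFAT in the cytoplasm.

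Most of the highest ranked members lay away from TSSs in DNA with few CpG dinucleotides, and 200 bp around the NT summit of 5 of the 6 top members are therefore shown, with each CpG in capitals. All are the plus strand of mouse build mm9, and all lay outside annotated exons. The first is intergenic, the next 3 lie in introns of the named gene and the last is within a peak over the TSS of Ptpn6.
near Prex1, chr2:166567222-166567421: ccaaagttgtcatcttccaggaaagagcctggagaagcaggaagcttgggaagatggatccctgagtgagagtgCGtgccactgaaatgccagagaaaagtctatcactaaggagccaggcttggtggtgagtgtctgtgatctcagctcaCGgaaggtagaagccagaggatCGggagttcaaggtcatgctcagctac
Vrk1, chr12:107264831-107265030: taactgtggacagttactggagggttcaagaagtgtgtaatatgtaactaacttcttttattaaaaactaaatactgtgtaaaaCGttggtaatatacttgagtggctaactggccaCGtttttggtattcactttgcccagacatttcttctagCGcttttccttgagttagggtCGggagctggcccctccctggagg
Fam178b, chr1:36661997-36662196: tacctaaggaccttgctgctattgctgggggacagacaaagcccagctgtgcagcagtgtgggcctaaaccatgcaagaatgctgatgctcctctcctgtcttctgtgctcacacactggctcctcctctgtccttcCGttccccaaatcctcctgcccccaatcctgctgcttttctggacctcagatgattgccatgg
2410152P15Rik, chr19:6670244-6670443: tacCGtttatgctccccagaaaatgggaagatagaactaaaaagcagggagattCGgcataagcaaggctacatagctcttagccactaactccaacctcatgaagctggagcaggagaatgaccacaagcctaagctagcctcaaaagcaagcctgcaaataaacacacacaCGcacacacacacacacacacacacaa
Ptpn6, chr6:124688306-124688505: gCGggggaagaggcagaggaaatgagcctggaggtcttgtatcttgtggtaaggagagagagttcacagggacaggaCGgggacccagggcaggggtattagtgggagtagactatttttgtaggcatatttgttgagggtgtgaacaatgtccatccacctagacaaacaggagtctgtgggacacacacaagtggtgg
The number of CpGs in these windows was 3, 4, 1, 3 and 2 in that order. The median in such windows was 3 over the 300 members and 8 over all 11179 shared peaks, and 21 members (7.0%) had no CpG there, against 1.33% of all shared peaks. For contrast, the window at the Vcan promoter is shown, a shared peak over a TSS that was no member. It was picked because its window held 9 CpGs, the median of shared peaks over a TSS, and because the CpG ratio of its whole peak was nearest to their median.
Vcan, chr13:89880231-89880430: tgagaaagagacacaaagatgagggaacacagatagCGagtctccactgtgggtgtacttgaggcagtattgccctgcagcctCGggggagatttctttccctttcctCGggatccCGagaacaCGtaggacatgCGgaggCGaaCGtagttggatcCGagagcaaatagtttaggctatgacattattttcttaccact
Vcan, which encodes the matrix proteoglycan versican, had 1073 tags in NT, 1227 in curdlan and 1146 in curdlan+FK506, and centred log2 ratios of 0.02 and -0.06.

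The ChIP libraries held 16662316 tags for NT, 21289349 for curdlan and 19468498 for curdlan+FK506, and 57.9%, 52.8% and 51.3% of them lay in called peaks. Before centring, the median log2 ratio over the shared peaks was 0.14 for NT over curdlan and 0.19 for NT over curdlan+FK506. These medians were subtracted from every ratio given below, so a ratio is relative to the typical shared peak and not to an external standard. A smaller share of cells with the mark and less mark per cell cannot be told apart in these bulk libraries.

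By tag sum the members were near the typical shared peak in NT cells and below most shared peaks after curdlan. The NT peaks of members were longer than shared peaks in general, with medians of 3279 and 2817 bp. Member fold enrichment in NT was lower, with a median of 27.8 against 41.9 over all shared peaks, whose lower quartile was 31.4. Their median was 579 tags in NT (from 200 to 3960), 405.5 in curdlan and 363.5 in curdlan+FK506. Per 1000000 ChIP tags the medians were 34.7, 19.0 and 18.7, against 39.7, 37.5 and 35.8 over all shared peaks. All 300 members had fewer tags in both treated libraries than in NT, although the treated libraries were deeper, and this was so for 17.8% of all shared peaks. The centred log2 ratio of NT over curdlan had a median of 0.65 and ran from 0.47 to 1.88, and that of NT over curdlan+FK506 had a median of 0.62 and ran from 0.46 to 1.83. A level lower by 1.5-fold or more was seen in 202 members with curdlan, against 2.36% of all shared peaks, in 175 members with curdlan+FK506, against 1.87%, and in 140 members in both, against 1.25%. No member was higher by 1.5-fold or more in both, as 3.32% of all shared peaks were. Nothing is read from these counts, since the same ratios chose the members.

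**Figure D1:**
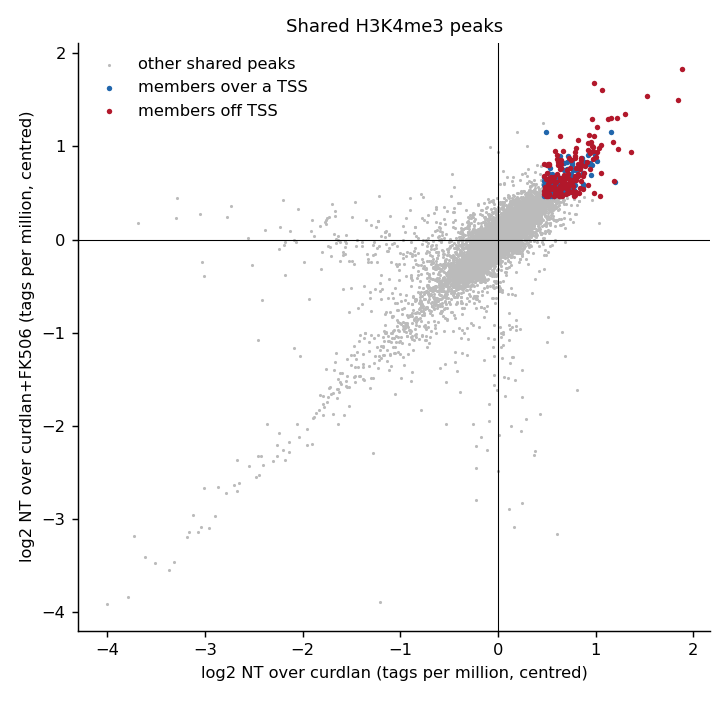
Each point is 1 of the 11179 shared H3K4me3 peaks, with the centred log2 ratio of NT over curdlan on the x axis and of NT over curdlan+FK506 on the y axis (tags per 1000000 ChIP tags). The 300 members are coloured by whether they cover a TSS, and the points of largest ratio, up to 1.88 and 1.83, lie off TSSs.

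The members had similar levels in both treated libraries. The log2 ratio of curdlan over curdlan+FK506, which was not used by itself to choose them but is made from the same libraries, had a median of -0.02, and 172 members were lower (57.3%, against 50.9% of all shared peaks) and 128 higher in curdlan than in curdlan+FK506. No member was lower by 1.5-fold or more in curdlan (0.975% of all shared peaks were), and 2 were higher by that much (1.84% of all shared peaks). A peak with a low level in both treated libraries was favoured by the choice, so a small difference between them was to some degree fixed by it. Both ratios also share the NT library, so a high NT value alone would raise them together.

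The values at the edge of the choice were close to each other. The last members were at Fam166b (rank 298, smaller log2 ratio 0.46), 70123 bp upstream of Gpr12 (0.46) and 7050 bp downstream of the Csnk1e TSS (0.46). Just outside were peaks over the TSSs of Hist1h4k (0.46) and Gga1 (0.46) and an intergenic peak whose nearest gene is Lta4h (0.46).

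The top member lay at chr2:166566585-166572694, 27990 bp upstream of the TSS of Prex1, which encodes a Rac exchange factor of myeloid cells. It held 529 tags in NT, 166 in curdlan and 153 in curdlan+FK506, or 31.7, 7.80 and 7.86 per 1000000, with log2 ratios of 1.88 (95% counting interval from 1.63 to 2.14) and 1.83 (from 1.56 to 2.10). The called region also shortened, from 6110 bp in NT to 2090 and 2174 bp, and per kb of called peak the log2 ratios were only 0.27 and 0.30. The second lay in an intron of Vrk1, a chromatin-associated kinase, with 873, 350 and 308 tags and lengths of 7938, 3111 and 3365 bp. The third, in an intron of Lekr1, had 310, 100 and 113 tags and lengths of 4135, 1737 and 2007 bp. At all 3 the treated levels were far below NT and close to each other.

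In the members ranked 4 to 9 NT was again highest, which the choice fixed for every member. In introns of Fam178b and 2410152P15Rik the tags were 434, 203 and 175, and 828, 411 and 343, in the order NT, curdlan and curdlan+FK506. The peak of 2410152P15Rik kept its length (3435, 3334 and 3039 bp), and its log2 ratios per kb were 1.12 and 1.10, among the largest per kb values of the members. The peak over the TSSs of Ptpn6 and Grcc10 had 381, 197 and 175 tags. Ptpn6 encodes SHP-1, the tyrosine phosphatase that acts behind inhibitory receptors. This peak shortened from 4870 bp to 1909 and 1829 bp, and per kb it was higher and not lower in the treated libraries, with log2 ratios of -0.25 and -0.28. Intergenic members whose nearest protein-coding TSS was that of 4921508M14Rik (291, 151 and 121 tags), Arhgap27 (255, 135 and 107) and 1700026D08Rik (261, 144 and 88) followed.

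Ranks 10 to 25 held 1 more peak over a TSS. The peak with its summit in an exon of Tep1, a telomerase-associated protein, was the strongest of the top 25, with 2087, 1069 and 1035 tags, and changed little in length (7451, 6769 and 7378 bp), so that its ratios per kb were 0.98 and 1.00. Intronic members lay in Coro2a (342, 191 and 174 tags), A630055G03Rik (591, 291 and 309), Ctbp2 (211, 125 and 88) and Mthfd1l (441, 253 and 236). Summits in exons were also found in Arhgef6, a Rac and Cdc42 exchange factor (302, 136 and 162 tags), and in Siglece, described with the inhibitory receptors. Intergenic members were nearest to Eif2a (352, 202 and 156), Zfp36l2 (636, 360 and 329), Trib2 (313, 184 and 161), Slc4a7 (1078, 638 and 553), Pax1 (955, 561 and 506), Bet3l (709, 425 and 352) and Wdfy4 (584, 354 and 275). The member 2657 bp upstream of Ctss, which encodes cathepsin S, the protease that trims the invariant chain of MHC class II, had 334 tags in NT, 195 in curdlan and 159 in curdlan+FK506. The TSS peak was that of Nlrp1b, an inflammasome sensor, with 526, 316 and 281 tags at nearly equal lengths (2707, 2677 and 2384 bp). In each of these members NT was the highest of the 3 libraries, as the choice required.

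**Figure D2:**
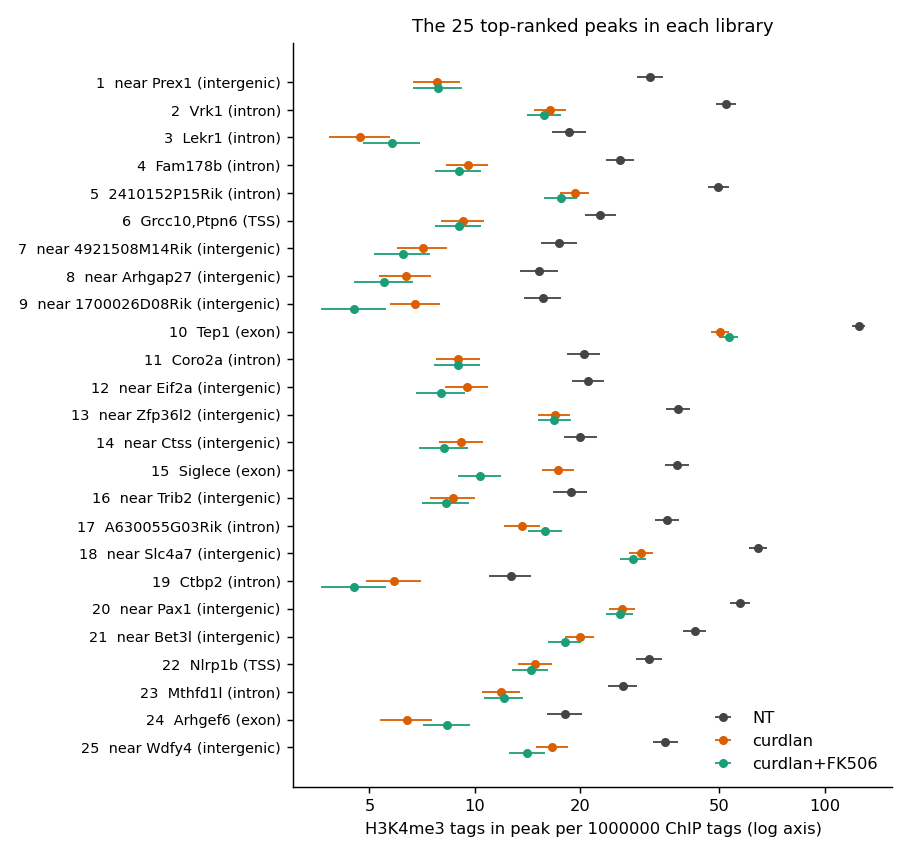
H3K4me3 tags per 1000000 ChIP tags (log axis) at the 25 top-ranked members in the NT, curdlan and curdlan+FK506 libraries, with exact Poisson 95% intervals of the tag counts as bars. In each row the NT point lies to the right of both treated points, as the choice required, and 23 of the 25 peaks lie off TSSs.

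Members were found off TSSs more often than shared peaks in general. A TSS lay inside 139 members (46.3%, 95% Wilson interval from 40.8 to 52%), compared with 79.0% of all shared peaks. Introns held 65 members (21.7% against 9.96%), intergenic DNA 83 (27.7% against 9.83%) and exons away from a TSS 13 (4.33% against 1.19%). A high intron share was not particular to the members. Of the 300 shared peaks of largest rise in both treated libraries, 63.7% covered a TSS, 22.0% lay in introns and 11.3% in intergenic DNA. Among shared peaks in the lowest quartile of CpG ratio, described below, these shares were 57.4%, 18.9% and 21.6%. Among the 50 top members only 13 covered a TSS (26.0%), and the share was 44.0% for ranks 51 to 100, 46.0% for 101 to 200 and 58.0% for 201 to 300. The 161 members off TSSs were weaker in NT than the 139 over a TSS, with medians of 402 and 877 tags, and off-TSS shared peaks in general had 390. Their summits lay a median of 15460 bp from the nearest TSS, against 5872 bp for all shared peaks off TSSs. The log2 medians were 0.71 and 0.66 off TSSs and 0.61 and 0.58 over TSSs.

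Of the members off TSSs, 78 lay within a gene, and 47 of these lay in 1 of 46 genes that also had a shared peak at its promoter. In 29 of the 46 genes (63.0%) that promoter peak was lower in both treated libraries, against 40.3% of all shared peaks over TSSs. Its median log2 ratio was only 0.10 with curdlan and 0.14 with curdlan+FK506. Among these promoter peaks 5 were members and so lower in both by the choice, which fixed a part of the 63.0%. The median distance between the member and the promoter peak was 24522 bp, and the smallest was 34 bp.

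Low CpG content was shared by members over and off TSSs. The median ratio of observed to expected CpG in the NT peak was 0.22 over the members and 0.51 over all shared peaks, and it was 0.23 for members over a TSS and 0.21 for members off TSSs. The GC content differed less, with medians of 47.2% and 49.6%. When the shared peaks were ordered by CpG ratio, 268 of the 300 members were in the lowest quartile, where they made up 9.59% of the peaks, and 18, 8 and 6 were in the others (0.644, 0.286 and 0.215%). The 300 shared peaks of largest rise were spread over the quartiles with 87, 56, 59 and 98 peaks. Across all shared peaks the median log2 ratio of NT over curdlan went from 0.13 in the lowest CpG quartile to 0.02, -0.03 and -0.08, and that of NT over curdlan+FK506 from 0.11 to 0.01, -0.02 and -0.05. The same order was seen for curdlan among peaks over TSSs (0.10, 0.02, -0.03 and -0.08) and off TSSs (0.17, 0.02, -0.07 and -0.09). Low-CpG peaks as a class thus lay on the side of the members, by less than the members did. When the ratios were centred within each CpG quartile, an alternative chosen after seeing the data, 228 of the 300 members were chosen again and 196 of the new 300 (65.3%) were in the lowest quartile. Of 300 peaks chosen in the same way by tags per kb 69.3% were in that quartile, and of 300 chosen by fold enrichment 39.0%. The share of tags in peaks differed between the libraries as given above, and its part in the CpG order was not tested.

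**Figure D3:**
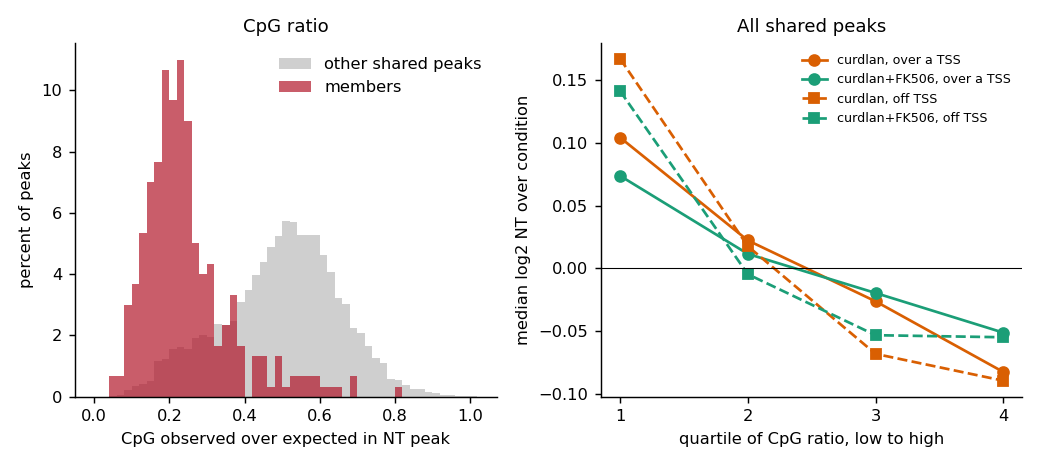
Left, the ratio of observed to expected CpG in the NT peak as a percent of the 300 members and of the 10879 other shared peaks. Right, the median centred log2 ratio of NT over each treated condition by quartile of that ratio, for all shared peaks over and off TSSs: the medians go from above 0 in the lowest quartile to below 0 in the highest, and the members, with a median of 0.22 in the left plot, lie at the low end.

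The members also became shorter. The median length called by the authors was 3279 bp in NT, 2810 bp in curdlan and 2814 bp in curdlan+FK506, whereas all shared peaks went from 2817 to 3006 and 2923 bp. A shorter region than in NT was covered in 242 members with curdlan (80.7%, against 36.1% of all shared peaks) and in 247 with curdlan+FK506 (82.3%, against 43.1%). The sum of tags moves with the length called, so the length and the tags belong to 1 measurement and the shortening is no separate result. Per kb of called peak, 289 members were still lower with curdlan (96.3%) and 282 with curdlan+FK506 (94%), against 5589 of all 11179 shared peaks in each case, a count that centring on the median fixes, with median log2 ratios of 0.49 and 0.44, and 50 members (of 79 shared peaks, 0.707%) were lower per kb by 1.5-fold or more in both. In 18 members the called region was shorter by 1.5-fold or more in both conditions, which was so for 24 of all shared peaks, and 8 of these 18 were among the top 25.

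The height of the summit gave a weaker contrast. The fold enrichment of the strongest overlapping peak, as deposited, had a median over the members of 27.8 in NT, 33.9 in curdlan and 27.6 in curdlan+FK506, and over all shared peaks of 41.9, 69.4 and 56.9. Only 66 members (22%, against 5.76% of all shared peaks) had a lower deposited fold enrichment in both treated libraries than in NT. Centred on all shared peaks, 226 members were lower with curdlan (75.3%) and 238 with curdlan+FK506 (79.3%), against 5589 of 11179 in each case, with median log2 ratios of 0.39 and 0.43. As deposited, the fold enrichment was lower than in NT in 83 members with curdlan (27.7%, against 10.3% of all shared peaks) and in 147 with curdlan+FK506 (49%, against 21.6%). Tags per kb use the tag sums that chose the members, so they are no independent measure. The choice of peaks itself depended on the measure, since 148 of the 300 were chosen again by tags per kb and 36 by fold enrichment.

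**Figure D4:**
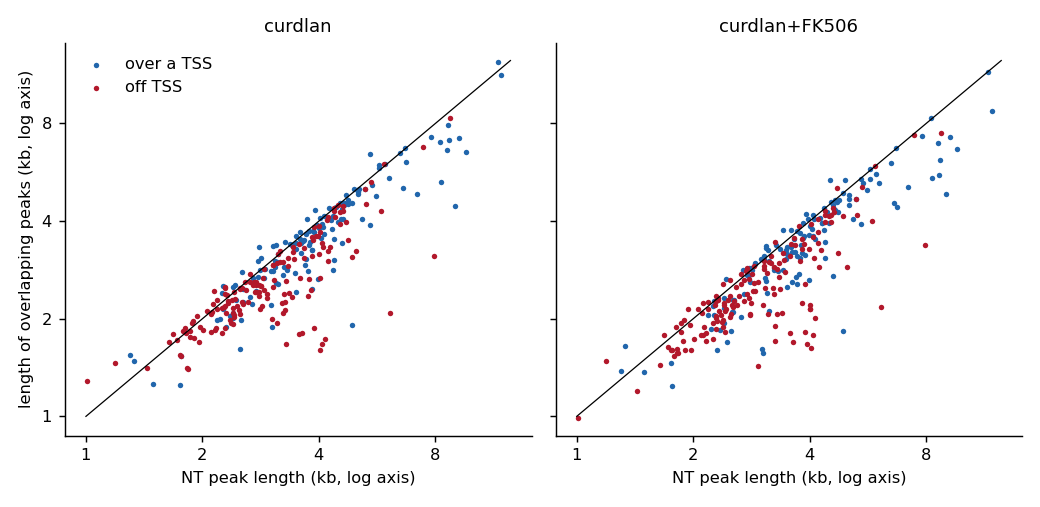
Length of the 300 members in NT (x axis, kb) against the summed length of the overlapping peaks in curdlan (left) and in curdlan+FK506 (right), on log axes, with the line of equal length. Most points lie below the line: 242 members were shorter with curdlan and 247 with curdlan+FK506.

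Over TSSs the shortening was on the side of the gene body. Edges were compared in the 126 members that covered TSSs of 1 strand only and overlapped exactly 1 peak in each treated list. Their upstream edge moved inward by a median of 17 bp with curdlan and 9 bp with curdlan+FK506, and the downstream edge by 201 and 228.5 bp. The downstream edge lay further inward than in NT in 100 of the 126 (79.4%) and 104 (82.5%), against 36.2% and 42.4% of 6845 shared peaks of this kind. The upstream edge lay further inward in 70 (55.6%) and 68 (54.0%), against 42.6% and 47.4%. Over the 6845 shared peaks the median inward shift was -60 and -29 bp downstream and -20 and -6 bp upstream, where a negative value is outward. In those peaks too the downstream median was thus the larger in size. The edges set the called length, which moves with the tag sums that chose the members, so this shift is no separate result.

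**Figure D5:**
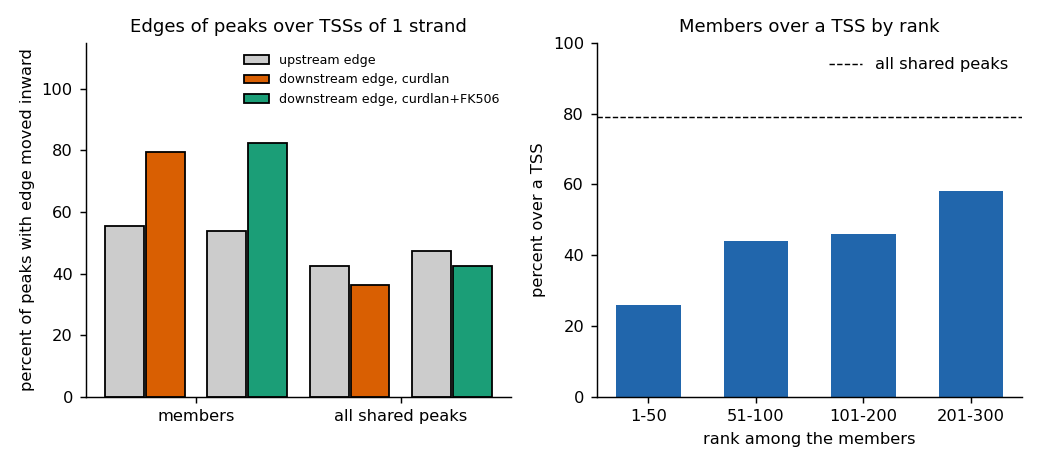
Left, the percent of peaks over TSSs of 1 strand, with 1 overlapping peak in each treated list, whose upstream or downstream edge lay further inward than in NT. Shown are 126 members and 6845 shared peaks. Each pair of bars is 1 condition, with the upstream edge left and the downstream edge right. The curdlan pair stands left of the curdlan+FK506 pair. Right, the percent of members over a TSS by rank (26.0, 44.0, 46.0 and 58.0%), with all shared peaks (79.0%) as a dashed line.

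Members at the promoters of listed genes were few. Within 1 kb of a TSS lay 9719 shared peaks, of which 151 were members (1.55%), and 17 genes of the 27 gene lists had such a member. Over these 9719 peaks the median log2 ratios were -0.02 with curdlan and -0.01 with curdlan+FK506. Counts of positive ratios in a list include its members, which are positive by the choice. Toll-like receptors, which sense microbial products, had 3 members among 17 shared peaks of the list of receptors and adaptors: Tlr5, the flagellin receptor (558 tags in NT, 439 in curdlan and 367 in curdlan+FK506), Tlr11, a profilin receptor (832, 604 and 556), and Tlr13, a receptor for bacterial ribosomal RNA (589, 433 and 412). A second member lay in the Tlr13 intron with 255, 142 and 160 tags. Over the list the median log2 ratios were 0.11 and 0.03, and 11 and 10 of the 17 peaks had a positive ratio.

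The list of nucleotide, lipid and other G-protein-coupled receptors and of RGS proteins, which dampen their signals, had 3 members among 39 peaks. P2ry12, the ADP receptor, had 1058 tags in NT, 721 in curdlan and 752 in curdlan+FK506. Gpr34, a lysophosphatidylserine receptor, had 1596, 1014 and 894, and Cysltr1, the leukotriene D4 receptor, had 1235, 1019 and 883. All were higher in NT than in both treated libraries, as the choice required of members. This list as a whole lay on the same side, with medians of 0.26 and 0.26 and with 25 and 29 of 39 peaks above 0.

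Among inhibitory receptors and signal phosphatases 3 of 30 peaks were members. Besides Ptpn6 these were Ptpro, a receptor tyrosine phosphatase (774 tags in NT, 574 in curdlan and 572 in curdlan+FK506), and Siglece, a sialic acid receptor with inhibitory motifs. Siglece carried a pair of members, at its TSS (357, 266 and 197 tags) and with its summit in an exon 4050 bp downstream (630, 369 and 201). Unlike most members, both were lower in curdlan+FK506 than in curdlan, by log2 differences of 0.26 and 0.70, and the exonic member was 1 of the 2 that differed by 1.5-fold or more. The other was at Pfkfb4 (0.66), named after its value was seen.

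Antigen presentation genes had 2 members among 25 peaks. March1, the ubiquitin ligase that removes MHC class II from the DC surface, had 2815 tags in NT, 1665 in curdlan and 1656 in curdlan+FK506, over 9610, 6520 and 6679 bp. H2-DMa, a chain of the peptide editor of MHC class II, had 2365, 1734 and 1693. The list of integrins and adhesion genes had 2 members among 19 peaks, Itgam, which encodes CD11b (1817, 1294 and 1316 tags), and Itgb7, the β7 chain (1364, 1009 and 886). The Itgam peak shortened from 7173 to 4840 and 5095 bp, and per kb its log2 ratios were 0.07 and -0.02, so the tags per kb hardly differed between the libraries.

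The other lists with a member had 1 each. These were Emr1, which encodes the macrophage protein F4/80 (1921 tags in NT, 1497 in curdlan and 1243 in curdlan+FK506), of 7 macrophage and monocyte marker peaks, Il16, a chemoattractant cytokine (1108, 800 and 739), of 18 cytokine and chemokine peaks, Ptgs1, which encodes cyclooxygenase 1 (1101, 756 and 692), of 31 sterol and lipid peaks, and E2f8, a repressor of cell cycle genes (2038, 1663 and 1498), of 52 cell cycle peaks. In the cell cycle list 46 of the 52 peaks had a ratio above 0 in each comparison, with medians of 0.17 and 0.23, but only E2f8 was among the members. Members within the gene but away from its promoter lay in introns of Mrc1, the mannose receptor (231, 176 and 168 tags), and Fli1, an ETS factor (308, 173 and 228).

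No member lay at the promoter of a listed gene of the remaining lists. The lists do not hold every gene of their class. Members lay over TSSs of Clec4a1, a C-type lectin gene, and of the interferon-induced Gbp4, Gbp8 and Gbp7. None of these was listed, and they were named after their values were seen. The remaining lists included dendritic cell markers (14 shared peaks), dectin-1 signalling (25), myeloid lineage transcription factors (84), interferon-stimulated genes (29), NF-kB and signalling inhibitors (35), lysosome genes (31), DNA repair genes (30), Fc and phagocytic receptors (10), chemokine receptors (4), myeloid C-type lectins (6), H3K4 methyltransferases and demethylases (25), the TGF-beta and SMAD pathway (26), T cell markers (1) and housekeeping genes (18). These counts stand beside the 1.55% of all such peaks that were members. Of the 697 genes listed, 688 were found in the annotation by symbol.

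The broadest members were over TSSs. The peak over Abi3, an adaptor of actin regulation, and Gngt2 spanned 11798 bp in NT with 3960 tags, 3230 in curdlan and 2796 in curdlan+FK506. The peak of Mbnl1, a splicing regulator, spanned 11580 bp with 3418, 2724 and 2331 tags. March1 was the third in length and Gpr82, an orphan receptor gene beside Gpr34, the third in tags (3347, 2697 and 2314). Their log2 ratios lay between 0.50 and 0.97, so the strongest members were not the ones with the largest ratios.

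Some members lay close together. A distance of 100 kb or less from another member was found for 59 of the 300, in 27 groups, 4 of which held 3 or more. The like count for other sets of 300 shared peaks was not made, so no excess is read from it. The median gap to the nearest NT peak of any kind was 13790.5 bp for members and 14681 bp for all shared peaks. On chromosome 4, 4 of 8 shared peaks in 133 kb around Atp8b5, Fam166b, Sit1 and E130306D19Rik were members. At Vrk1 all 3 shared peaks in 67.8 kb were members, namely the TSS peak (2035, 1585 and 1400 tags), the intronic peak and a peak 43349 bp upstream (493, 366 and 319). On chromosome 5 all 3 shared peaks in 160 kb, at Abcg3 (641, 398 and 374 tags), Gbp8 (457, 290 and 269) and Gbp4 (641, 399 and 375), were members. Gbp genes encode interferon-induced GTPases, and as a family of near copies their reads may be shared between members, so these values are less certain. On chromosome 7, 3 of 7 shared peaks at Vkorc1, Pycard and Itgam were members. Pycard, which encodes the inflammasome adaptor ASC, had 1056, 779 and 717 tags. Gpr34 and Gpr82 on chromosome X formed a pair, as did the peaks at Siglece, Tlr13, Susd1 and Wdfy4. The genes of groups and pairs were named after their values were seen. Neighbouring peaks share their region and are not independent.

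Peaks of V5-tagged NFATc2 overlapped 77 members (25.7%, 95% Wilson interval from 21.1 to 30.9%), against 15.1% of all shared peaks. When the 300 peaks were chosen by fold enrichment instead, 12.7% overlapped an NFATc2 peak, which is below the share of all shared peaks. The higher share of the members was not seen among peaks of like CpG content: of the 2795 shared peaks in the lowest CpG quartile 26.9% overlapped an NFATc2 peak, and of the 268 members in that quartile 26.1% did. NFATc2 peaks of p 1e-10 or less overlapped 12.7% of members, 7.97% of all shared peaks and 16.2% of low-CpG shared peaks. Of the 300 shared peaks of largest rise 22.3% overlapped an NFATc2 peak, and of the 87 of these in the lowest CpG quartile 39.1% did. The log2 ratio of curdlan over curdlan+FK506 had a median of 0.02 with and -0.04 without an NFATc2 peak.

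The members with the most NFATc2 tags were intergenic. The first, 48841 bp upstream of Eed, a subunit of the Polycomb complex PRC2, held 325 NFATc2 tags, and its H3K4me3 tags were 1759 in NT, 1263 in curdlan and 1191 in curdlan+FK506. The second, 26833 bp upstream of Exoc6, held 275, with 295, 209 and 188 H3K4me3 tags at nearly equal lengths (1680, 1796 and 1780 bp). The third was the rank 7 member nearest to 4921508M14Rik, with 233. The NFATc2 cells had 30 min of curdlan and the H3K4me3 cells 2 h, so the libraries do not show both at the same time.

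Short motifs were counted on both strands within 250 bp of the NT summit, in windows of 501 bp. The NFAT core GGAAAA was present in 40.3% of members and 37.8% of all shared peaks, and it is short enough to be frequent anywhere. The RUNX motif TGTGGT was in 34.7% of members (95% Wilson interval from 29.5 to 40.2%), 22.8% of all shared peaks and 31.3% of low-CpG shared peaks. The AP-1 motif TGAGTCA was in 8.67%, 5.54% and 7.58% and the PU.1 motif GAGGAAGT in 7.67%, 4.42% and 6.98% of these sets. The IRF motif, a pair of GAAA with any 2 bases between them, was in 6.33% of members (from 4.09 to 9.68%), 7.58% of all shared peaks and 12.7% of low-CpG shared peaks (from 11.5 to 14%). The intervals of members and low-CpG peaks did not overlap for this motif, 1 of several counted. They are no test, since 268 of the 300 members are low-CpG shared peaks themselves and neighbouring members are not independent. The E-box CACGTG, which contains a CpG, was in 6.33%, 9.68% and 7.51%. The C/EBP palindrome TTGCGCAA and the NF-κB motif (GGGAC followed by TTTCC) were in no member, where a limit of 3 counts in 300 windows allows a share of up to 1.00% each and the Wilson upper limit is 1.26%, and in 0.233% and 0.161% of all shared peaks. Matches of different motifs can overlap, since GGAAAA shares letters with the IRF motif and with GAGGAAGT. These counts describe letters in the reference sequence and not binding. For RUNX, AP-1 and PU.1 the low-CpG shared peaks lay closer to the members than to all shared peaks.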

How the data were processed

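ChIP-seq was done by the authors in D1 cells, with H3K4me3 libraries from NT, curdlan and curdlan+FK506 cells, an anti-V5 library from NFATc2-V5 cells, and 1 input for each (8 samples). Per the labels, Bowtie 1 was used by the authors for mapping to mm9. Per the file headers they called peaks with MACS 1.4.2 in each library on its own against its input, at p 1e-05, a band width of 1000 bp for H3K4me3 and 300 bp for NFATc2, with duplicate tags beyond 1 per position removed. The deposited lists hold the count of tags per peak, not normalized, and the length and summit. They also hold the authors' fold enrichment, a ratio of tags to the local background of the input, a score of −log10 p multiplied by 10 (given up to 3100 for most peaks), and an FDR in percent.

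From these, tags per 1000000 header ChIP tags were computed, and peaks were matched at an overlap of 1 bp or more. In the H3K4me3 headers the totals are the same before and after the removal of duplicates. A tag sum moves with the length called, so tags per kb are given too. The 95% intervals of log2 ratios condition on the sum of both counts, and the intervals of shares are Wilson intervals. With 1 library per condition no test between conditions was possible. The members and the gene lists were chosen with earlier results of these data known. Genes and the genome were NCBIM37 with the Ensembl 65 annotation (37310 genes, 22380 protein-coding), and a peak was over a TSS if any transcript start lay inside it; other peaks were placed by their summit. Expected CpG was the product of C and G counts over length. Named genes were those of the 25 top members, of listed genes with a member within 1 kb of a TSS, of the 3 members inside and 3 peaks outside the limit, of the 3 broadest members, the 3 with most NT tags and the 3 with most NFATc2 tags. Host genes with a member in an intron, and the groups of neighbouring members, were added. Sequences were read from the reference genome at the NT summit, outside exons and off chromosome 18. The window of 1 of the 6 top members is not reported here. Alternatives were tags per kb, fold enrichment, scaling by tags in peaks, limits of 100 and 500 tags, coverage of the NT peak, peaks matched 1 to 1, FDR, and 150 or 600 members. The overlap and ranking code was tested on simulated data. The tools were matplotlib 3.10.9, pysam 0.24.0, scipy 1.17.1, pandas 2.3.3, numpy 2.4.6 and Python 3.11.15.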

Additional observations from a re-analysis of the deposited data

How the results depend on the processing

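Most alternatives chose their peaks again by the smaller of the log2 ratios of NT over curdlan and over curdlan+FK506. The medians of both ratios were therefore positive by construction, and with 150 or 600 members the count in common was fixed. The median of curdlan over curdlan+FK506 kept its sign. Of 88 values under alternatives, 57 stayed near the reported value. For shares and medians near meant within its 95% interval (Wilson or order statistics), and for counts within 1.5 times of it. Other values follow, with the median log2 ratios of NT over curdlan and over curdlan+FK506 first. Per kb, these medians were 0.57 and 0.54, 148 of the 300 members were chosen again and 79 were lower by 1.5-fold or more in both. By fold enrichment they were 1.08 and 1.05, with 36 chosen again, 65.3% over a TSS, 12.7% with an NFATc2 peak and 300 lower by 1.5-fold in both; 39.0% of those peaks were in the lowest CpG quartile, against 69.3% per kb. With 500 or more NT tags they were 0.55 and 0.51, with 166 chosen again, 67.0% over a TSS and 73 lower by 1.5-fold. With 100 or more tags they were 0.70 and 0.66. With 150 members they were 0.79 and 0.76, 150 were in common and 36.7% covered a TSS, and with 600 members they were 0.53 and 0.49 with 53.3% over a TSS. NFATc2 peaks of p 1e-10 or less overlapped 12.7% of members. For 2 alternatives chosen after seeing the data, centring within CpG quartiles gave 0.55 and 0.53, 53.7% over a TSS and 77 lower by 1.5-fold, and centring within peaks over and off TSSs gave 0.63 with curdlan and 54.0% over a TSS. Which peaks are members thus depends most on the measure, and the cause was not tested. Members near the limit of 200 NT tags are the least precise, and no library could be left out because there was 1 per condition. No paired analysis was possible because each condition had 1 library and no result came from a test.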
